A study of Mus musculus with 6 samples.

Results

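The genes described here build and shed extracellular vesicles: the tetraspanins, the ESCRT complexes with their ATPases, and the vesicle proteins ALIX, syntenin, the flotillins and the sphingomyelinase Smpd3. Membership was set by gene symbol: all symbols that start with Tspan or Chmp and a digit plus a list of 24 further symbols. In all, 55 of the 49644 gene identifiers in the count table belonged to the set. The set held 27 tetraspanins, 2 antisense RNAs that share a tetraspanin's symbol, 3 ESCRT-0, 4 ESCRT-I, 2 ESCRT-II and 10 ESCRT-III genes, 2 ATPases, ALIX and syntenin, 2 flotillins and Smpd3. Vps28 is not analysed here. Polyadenylated RNA was sequenced from microglia, the macrophages that live in the brain, grown in culture from CD1 mice. In 3 samples, named EV-treated A, B and C, the microglia received extracellular vesicles (EVs) that had been collected by serial centrifugation from primary neural stem cells grown from the subventricular zone of CD1 mice, and in 3 samples, named control A, B and C, they received the control treatment. The labels give no dose, exposure time, animal age or sex. They do not say what the control treatment contained or whether replicates are separate cultures. The p-values therefore rest on differences among 6 samples whose spread may be only technical.

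Tetraspanins are small membrane proteins that cross the membrane repeatedly and gather partner proteins into patches of the plasma membrane and of endosomes. Cd63, Cd9 and Cd81 are widely used as markers of extracellular vesicles. The ESCRT machinery works in order: ESCRT-0 binds ubiquitinated cargo on endosomes, ESCRT-I and ESCRT-II deform the membrane, ESCRT-III polymerises at the neck of the bud, and the ATPase Vps4 takes the polymer apart. Vesicles that bud into the endosome this way can be degraded in lysosomes or released as exosomes, and the adaptors ALIX and syntenin and the lipid ceramide offer further routes to the same vesicles. The measurements below are of messenger RNA in the cells that received vesicles, not of vesicle number or protein.

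Counts summed over all exon bins came to 109744701 to 162544804 per library. Expression is given as CPM, counts scaled to the usual common library total after TMM correction, and levels of different genes are compared only as CPM per kilobase of exon. Of the 10 microglial markers examined, 1 rose and 6 fell, and their summed level was 2954 to 3134 CPM in EV-treated libraries, against 4498 to 5955 CPM in control libraries. The 5 neuronal markers were all under 1 CPM in every library. Markers listed for astrocytes summed to 88.3 to 123 CPM in EV-treated libraries, against 10.9 to 15.5 CPM in control libraries, with Gfap, Aqp4 and Slc1a3 under 1 CPM throughout. Slc1a2 and Gja1 rose and make up most of the EV-treated sum, while Aldh1l1, at 1.72 ± 0.635 CPM in EV-treated and 13.4 ± 2.43 CPM in control libraries (SD, n = 3 each), fell by 2.96 ± 0.28 on the log2 scale and makes up most of the control sum. Markers listed for neural stem cells summed to 3.31 to 3.85 CPM in EV-treated libraries, against 55.4 to 97.5 CPM in control libraries, with Sox2, Hes5, Dcx and Sox9 under 1 CPM in every library. Nes, at means of 2.47 CPM in EV-treated and 68.5 CPM in control libraries, makes up most of both sums. Fabp7 followed, at 0.888 CPM in EV-treated and 11.7 CPM in control libraries. Endothelial markers summed to 24.6 to 35.1 CPM in EV-treated libraries and to 4.68 to 6.04 CPM in control libraries, with Cldn5 and Tek under 1 CPM. Kdr, at means of 25.3 CPM in EV-treated and 5.07 CPM in control libraries, makes up most of both sums. Of the oligodendrocyte lineage markers, Mbp fell by 2.07 ± 0.12, with 9.48 ± 0.966 CPM in EV-treated and 39.7 ± 3.27 CPM in control libraries, Cnp fell by 1.03 ± 0.12 and Pdgfra rose by 3.45 ± 0.21, with Olig1, Olig2, Sox10 and Mog at means under 1 CPM in both groups. Fibroblast markers summed to 13.8 to 20.2 CPM in EV-treated and to 15.0 to 41.2 CPM in control libraries, with Lum under 1 CPM; Dcn and Pdgfrb rose by 5.51 ± 0.78 and 2.89 ± 0.37, and Col1a1 and Col3a1 fell by 1.28 ± 0.31 and 1.48 ± 0.39. What part these marker differences have in the results below was not tested, and in bulk RNA fewer cells of a type and less RNA per cell cannot be told apart.

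In EV-treated microglia, 23 members rose and 12 fell, out of 48 that had enough counts to be tested. The rises took in all of ESCRT-0, most of ESCRT-I and several tetraspanins, led among well expressed genes by Tspan5, Cd53 and Tspan3, and the falls were mostly tetraspanins, led by Tspan17 and Tspan14. Calls are at an adjusted p under 0.05 in edgeR's quasi-likelihood test with Benjamini-Hochberg adjustment over all 16605 gene entries tested. Of the members tested, 72.9% were called, 47.9% as rises and 25% as falls, against 66.5% of all entries, 33.0% as rises and 33.5% as falls. The libraries of the groups did not overlap in 36 members, or 75%, against 71.3% of all entries. The share of members called was thus near the background. By a log2 change of at least 1, 10 members rose and 6 fell, where 20.4% and 19.6% of all entries did so. The median log2 fold change was 0.29 over the members tested and -0.02 over all entries; with no filter on low counts the medians were 0.17 over members and 0.17 over all entries. The direction count depends on scaling: with library totals alone, which move the median of all entries to -0.38, 16 members rose and 18 fell, and the members' median was -0.08, so that the members lay above the median of all entries by 0.30 with either scaling. The members below the filter on low counts were Tspan1, Tspan6, Tspan8, Tspan11, Tspan32, Tspan2os and Tspan32os.

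**Figure D1:**
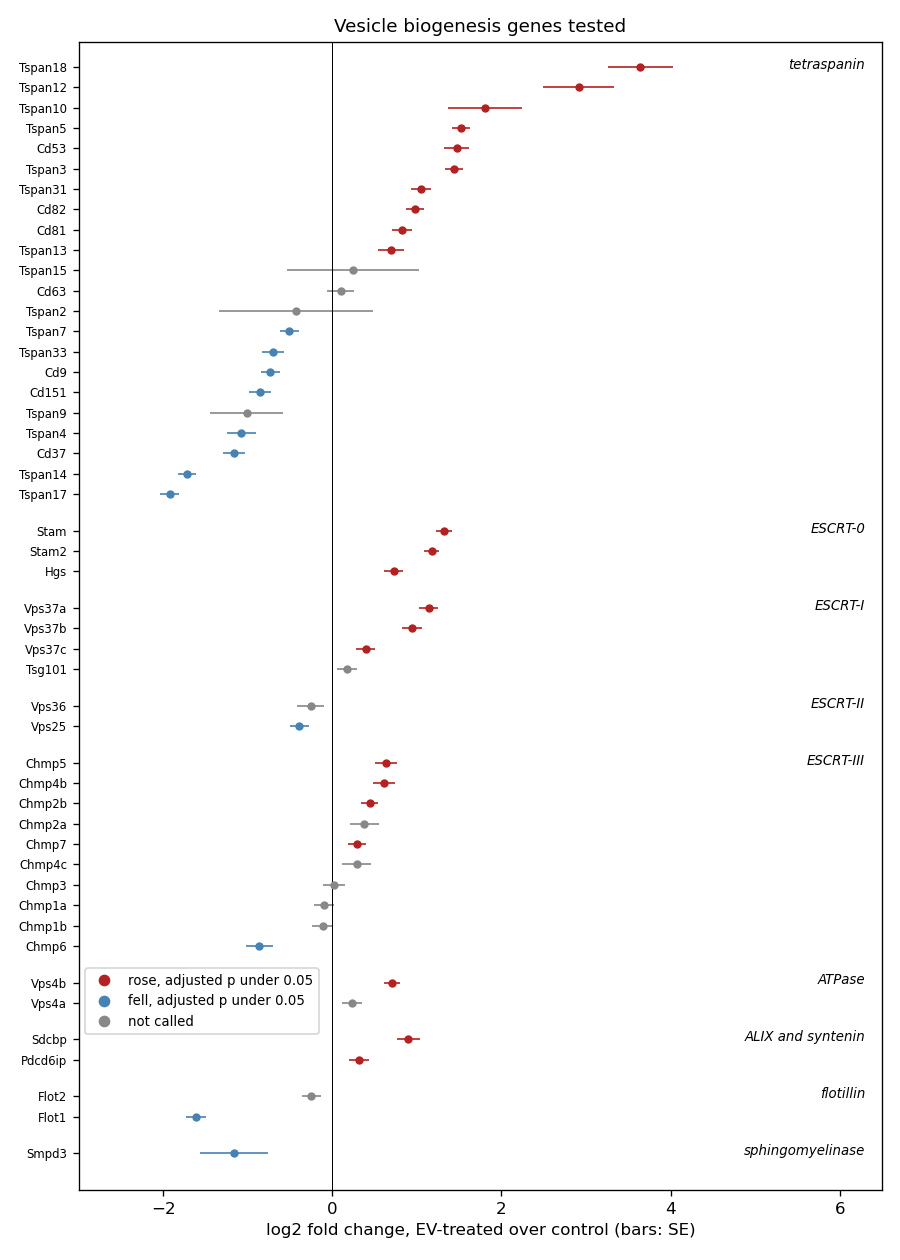
Log2 fold change of EV-treated over control microglia (x axis, bars are SE) for the 48 members tested, grouped by role and ordered within each role; red marks genes that rose, blue genes that fell and grey genes not called. ESCRT-0 genes all lie to the right of 0, while tetraspanins run from -1.92 for Tspan17 to 3.64 for Tspan18; with library totals as the scaling all points shift to the left and ESCRT-III holds 0 rises and 4 falls.

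Among the 22 tetraspanins tested, 10 rose, 8 fell and 4 were not called, where 33.0% of all entries rose and 33.5% fell. Cd63, which sits in late endosomes and lysosomes and is the classic marker of exosomes, had the highest level per length of all members. It was measured at 1091, 1308 and 969 CPM in EV-treated A, B and C, against 1156, 1131 and 860.4 CPM in control A, B and C. The groups overlapped, and the log2 fold change of 0.10 ± 0.16 (SE) was not called (edgeR adjusted p = 0.612), with a sign that turned under other scalings and when single libraries were left out.

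Cd9 and Cd81, close relatives that pair with integrins and immunoglobulin-family proteins at the cell surface, went opposite ways. Cd9, the member of the second highest level per length, had 611, 619 and 563 CPM in the EV-treated libraries, against 1002, 948 and 1033 CPM in the control libraries. Every EV-treated value lay below every control value, and Cd9 fell by 0.73 ± 0.11 on the log2 scale (edgeR adjusted p = 0.000252). Cd81 had 328, 305 and 291 CPM in EV-treated libraries and 166, 159 and 197 CPM in control libraries, with no overlap, a log2 fold change of 0.82 ± 0.12 and an edgeR adjusted p of 0.000185. Relative to the summed level per length of all tetraspanins, Cd9 made up 14.2% ± 1.01 in EV-treated and 24.5% ± 2.81 in control libraries, and Cd81 5.22% ± 0.537 in EV-treated and 3.05% ± 0.599 in control libraries (SD, n = 3 each).

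Cd53 and Cd37, a pair of tetraspanins of blood and immune cells, parted in the same manner. Cd53, the third member by level per length, reached 527, 554 and 409.6 CPM in EV-treated A, B and C, against 157, 181 and 200.0 CPM in control A, B and C. All EV-treated libraries stood well above all control libraries, with a log2 fold change of 1.47 ± 0.15 (edgeR adjusted p = 1.69e-05). Cd37, known in lymphocytes and myeloid cells as a regulator of adhesion and receptor signalling, had 118, 112 and 111 CPM in EV-treated libraries and 295, 247 and 221 CPM in control libraries. The EV-treated values were close together and all below control, a fall of 1.16 ± 0.13 on the log2 scale (edgeR adjusted p = 2.63e-05).

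After TMM scaling, the sum of tetraspanin levels differed between the groups by less than the spread of the libraries. It was 2064 ± 243 CPM per kilobase in EV-treated and 1999 ± 154 CPM per kilobase in control libraries (SD, n = 3 each), a ratio of 1.03. This sum depends on the scaling and is not given with library totals alone. With library totals, the median log2 fold change of the tetraspanins tested was -0.21, against 0.17 with TMM scaling. The makeup of the sum differed between the groups. Cd63 held 52.6% ± 2.14 of it in EV-treated and 50.7% ± 4.29 in control libraries. The share of Cd53 was 13.8% ± 0.838 in EV-treated and 5.20% ± 1.02 in control libraries, and that of Cd37 was 1.57% ± 0.181 in EV-treated and 3.60% ± 0.310 in control libraries. These shares are ratios within a library and do not depend on the scaling of libraries.

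**Figure D2:**
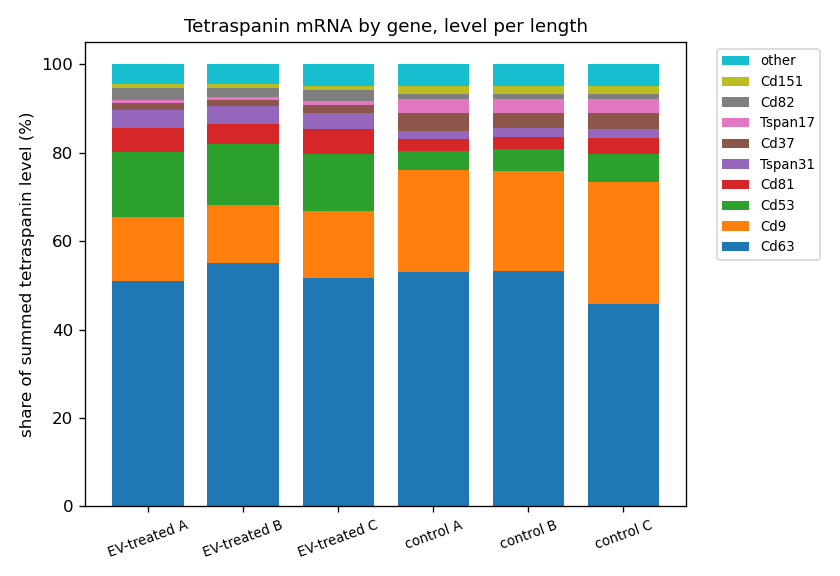
Share of each tetraspanin in the summed level per length of the 27 tetraspanins (y axis, percent), with 1 bar per library, EV-treated at left and control at right; the 9 genes with the highest mean share are drawn singly. The orange band of Cd9 is narrower in the EV-treated libraries (13.1% to 15.1%) than in the control libraries (22.5% to 27.7%), and the green band of Cd53 is wider (12.9% to 14.6% in EV-treated against 4.27% to 6.29% in control).

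The TspanC8 subgroup, which binds the membrane protease ADAM10 and takes it to the cell surface, comprises Tspan5, Tspan10, Tspan14, Tspan15, Tspan17 and Tspan33. Looking at them together was chosen after their values were seen. Tspan17 had 27.3, 29.9 and 25.3 CPM in EV-treated A, B and C, against 109.9, 108 and 95.3 CPM in control A, B and C. The groups were far apart, and the fall of 1.92 ± 0.11 on the log2 scale was the deepest of all members tested (edgeR adjusted p = 3.55e-07). Tspan14 had 26.7, 25.5 and 27.4 CPM in EV-treated libraries and 96.4, 81.4 and 84.3 CPM in control libraries, again without overlap, and fell by 1.72 ± 0.10 (edgeR adjusted p = 5.13e-07). Tspan5 did the reverse, with 133, 120.4 and 119 CPM in EV-treated libraries, against 40.5, 43.5 and 45.8 CPM in control libraries. Each EV-treated library was more than double each control library, for a log2 fold change of 1.52 ± 0.10 (edgeR adjusted p = 9.37e-07).

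The remaining members of this subgroup were low. Tspan33 averaged 5.05 ± 0.149 CPM in EV-treated and 8.20 ± 0.805 CPM in control libraries (SD, n = 3 each) and fell by 0.70 ± 0.13. Tspan10 and Tspan15 stayed under 1 CPM in all libraries; Tspan10 rose by 1.80 ± 0.44, and Tspan15 had 0.24 ± 0.78 with overlapping groups. Summed per length, the 6 genes came to 45.3 ± 1.48 CPM per kilobase in EV-treated and 105.8 ± 6.4 CPM per kilobase in control libraries, and Tspan5 made up 37.1% ± 1.61 of that sum in EV-treated and 5.56% ± 0.668 in control libraries. Adam10, the protease itself, had 71.8, 66.0 and 77.0 CPM in EV-treated libraries and 126, 104 and 127 CPM in control libraries, a fall of 0.73 ± 0.12 (edgeR adjusted p = 0.000342).

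**Figure D3:**
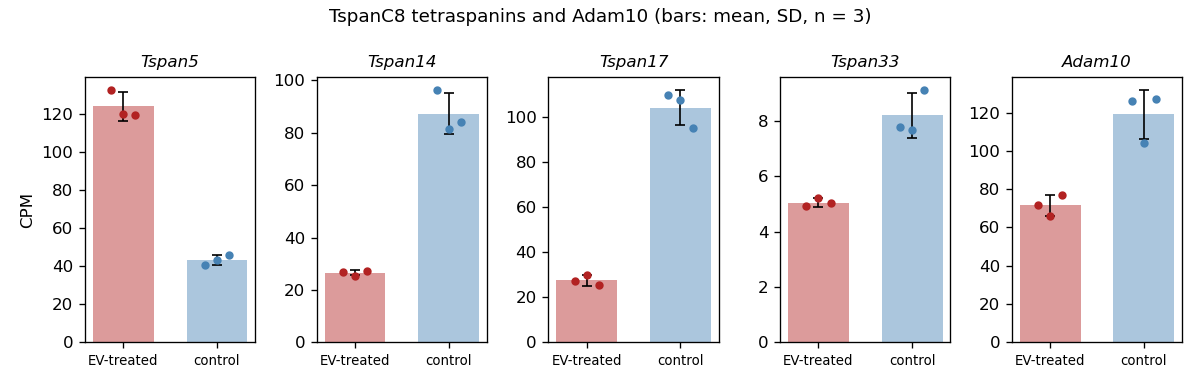
Expression in CPM (y axes start at 0 and differ between panels) of the 4 TspanC8 tetraspanins above 1 CPM and of Adam10, with EV-treated at left and control at right in each panel; bars are means, error bars SD and points the 3 libraries. Tspan5 is the panel in which the EV-treated bar is the taller, at 124 CPM against 43.3 CPM in control.

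Other tetraspanins also moved in both directions. Tspan3, a widely expressed tetraspanin, had 161, 184 and 159 CPM in EV-treated A, B and C, against 64.5, 63.3 and 58.5 CPM in control A, B and C. Tspan31 had 127, 135 and 104 CPM in EV-treated libraries and 58.8, 61.4 and 56.6 CPM in control libraries. Both genes were higher in every EV-treated library than in any control library, with log2 fold changes of 1.43 ± 0.11 for Tspan3 (edgeR adjusted p = 1.91e-06) and 1.05 ± 0.12 for Tspan31 (edgeR adjusted p = 3.78e-05). Cd82, a tetraspanin known as a suppressor of metastasis and a regulator of adhesion, rose by 0.98 ± 0.11, and Tspan13 rose by 0.69 ± 0.15.

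Tspan4, which marks migrasomes, the vesicle-like bodies left on the retraction fibres of moving cells, had 31.1, 42.8 and 27.3 CPM in EV-treated libraries, against 73.8, 78.4 and 61.1 CPM in control libraries. The groups did not overlap, although the EV-treated libraries were spread more widely than for most members, and Tspan4 fell by 1.08 ± 0.17 on the log2 scale (edgeR adjusted p = 0.000349). Its upstream neighbour Cd151, a partner of laminin-binding integrins whose gene ends 3766 bases before Tspan4 begins on chromosome 7 and lies on the same strand, fell by 0.85 ± 0.13. Tspan7 fell by 0.51 ± 0.11. At very low levels, Tspan18 had 1.23, 1.01 and 1.34 CPM in EV-treated libraries and 0.144, 0.0945 and 0.0530 CPM in control libraries, and Tspan12, a co-receptor component of Norrin signalling, averaged 0.551 ± 0.0596 CPM in EV-treated and 0.0732 ± 0.0334 CPM in control libraries. Tspan18 and Tspan12 gave the highest log2 fold changes of all members tested, 3.64 ± 0.39 and 2.91 ± 0.42. Tspan9, at -1.01 ± 0.43 with overlapping groups, and Tspan2 were not called. Tspan9 stayed uncalled in 9 of 17 alternatives. It was called as a fall in the others, among them DESeq2, limma-voom, upper-quartile scaling and library totals.

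**Figure D4:**
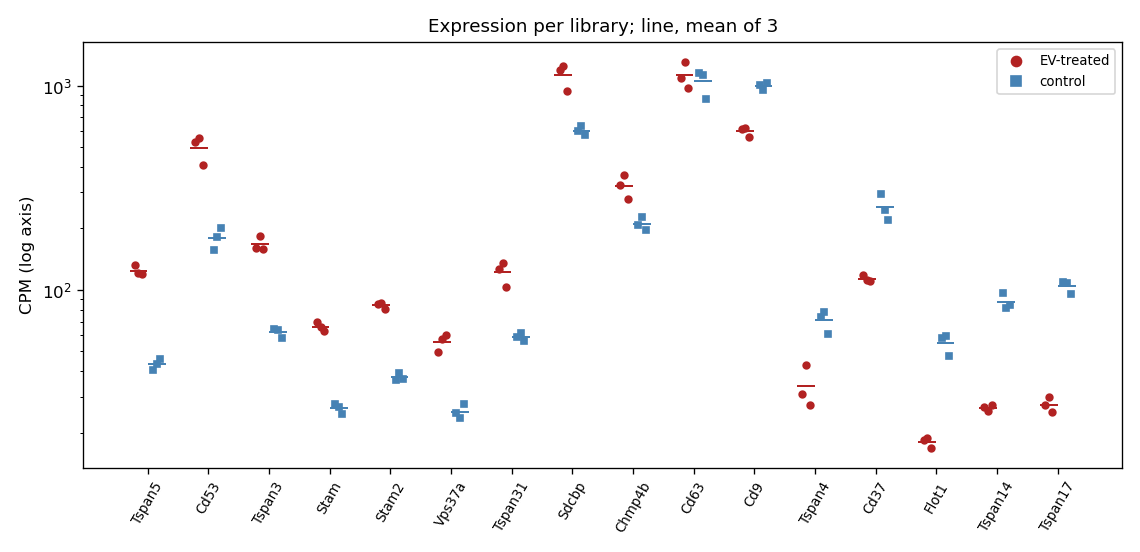
Expression per library in CPM (log axis) of the 12 members called past both thresholds of 1 (absolute log2 fold change and mean log2 CPM), and of the 5 members with the highest level per length (Cd53 is in both), ordered by fold change; red circles are EV-treated and blue squares control libraries, with a line at each mean. For the 12, a lack of overlap between the groups was also part of the choice. Among the 5 members with the highest level per length, the groups overlap for Cd63 alone.

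ESCRT-0, the complex that selects ubiquitinated cargo, rose as a whole: its 3 genes were all called, where 33.0% of all entries rose. They stayed called with every scaling tried. Stam had 69.3, 66.0 and 62.9 CPM in EV-treated A, B and C, against 27.7, 26.9 and 24.7 CPM in control A, B and C. Its paralog Stam2 had 85.0, 86.5 and 81.1 CPM in EV-treated libraries and 36.1, 39.2 and 36.7 CPM in control libraries. Both STAM genes were more than double the control level in each EV-treated library, with log2 fold changes of 1.32 ± 0.10 for Stam (edgeR adjusted p = 1.90e-06) and 1.17 ± 0.09 for Stam2 (edgeR adjusted p = 3.12e-06). The count entry of Stam2 is joined with the gene model Gm13548, but bins of Stam2 alone held nearly all of its counts, 99.9% in control A, the lowest library. Hgs, the ESCRT-0 scaffold that binds endosomal lipid and clathrin, averaged 179 ± 11.8 CPM in EV-treated and 108 ± 10.6 CPM in control libraries and rose by 0.72 ± 0.11. The summed ESCRT-0 level was 81.4 ± 4.24 CPM per kilobase in EV-treated and 45.4 ± 3.83 CPM per kilobase in control libraries (SD, n = 3 each), a ratio of 1.79. The size of the rise depends on the scaling: the median log2 fold change of the 3 genes was 1.17 with TMM scaling and 0.80 with library totals.

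In ESCRT-I, the 3 VPS37 subunits rose and the core subunit Tsg101 was not called. Vps37a had 49.8, 57.3 and 60.5 CPM in EV-treated libraries, against 25.0, 23.5 and 27.7 CPM in control libraries, with no overlap and a log2 fold change of 1.14 ± 0.11 (edgeR adjusted p = 1.48e-05). Vps37b rose by 0.94 ± 0.12. Vps37c rose by 0.39 ± 0.11. Its call was lost with library totals or upper-quartile scaling, with no filter on low counts and without control A (log2 fold change of 0.35). Tsg101, the subunit that binds ubiquitin and viral late domains, averaged 99.5 ± 14.2 CPM in EV-treated and 88.3 ± 0.867 CPM in control libraries, and the call was gained without EV-treated C (log2 fold change of 0.27, edgeR adjusted p = 0.0453).

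ESCRT-II held no rise. Vps36, its lipid- and ubiquitin-binding subunit, averaged 29.4 ± 6.94 CPM in EV-treated and 35.0 ± 1.74 CPM in control libraries with overlapping groups, and was not called. Without EV-treated B it was called as a fall (log2 fold change of -0.43). The same held with library totals, with no filter and with the single bin with the most counts. The entry of Vps25 fell by 0.39 ± 0.11, but it joins Vps25 with the overlapping gene Ramp2, and 98.6% to 99.2% of its counts lay in bins shared by both genes, so most of its counts cannot be told apart by gene. Bins of Ramp2 alone (2198 bases) held 0 to 12 counts per library, and bins of Vps25 alone (539 bases) held 40 to 53 counts in EV-treated and 84 to 122 counts in control libraries.

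Of the 10 ESCRT-III genes, 4 rose, 1 fell and 5 were not called, where 33.0% of all entries rose and 33.5% fell. With library totals as the scaling, 0 of the ESCRT-III genes rose and 4 fell. Chmp4b, the main filament-forming subunit, had 327, 364 and 277 CPM in EV-treated A, B and C, against 209, 228 and 197 CPM in control A, B and C. Every EV-treated library exceeded every control library, and Chmp4b, the fourth member by level per length, had a log2 fold change of 0.61 ± 0.13 (edgeR adjusted p = 0.00202). Chmp5, a regulator that binds the VPS4 cofactor, rose by 0.64 ± 0.13, Chmp2b by 0.44 ± 0.10 and Chmp7, which also serves in resealing the nuclear envelope, by 0.29 ± 0.11. The call of Chmp7 was lost without EV-treated A, EV-treated B, control A or control C, with edgeR adjusted p-values of 0.0838 to 0.168. It was also lost with upper-quartile scaling, library totals and no filter on low counts. Chmp6, the subunit that ESCRT-II uses to start the filament, averaged 31.7 ± 0.752 CPM in EV-treated and 57.7 ± 13.1 CPM in control libraries, and fell by 0.87 ± 0.16.

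Several ESCRT-III subunits come as paralogs. Chmp2a had a log2 fold change of 0.37 ± 0.17 beside 0.44 ± 0.10 for Chmp2b, and Chmp2a was called as a rise by DESeq2, by its single bin with the most counts (log2 fold change of 0.47) and without EV-treated C (0.50). Chmp4c averaged 2.94 ± 0.387 CPM in EV-treated and 2.41 ± 0.166 CPM in control libraries, far below Chmp4b per length, with 0.292 CPM per kilobase in EV-treated libraries and 0.239 CPM per kilobase in control libraries. Chmp1a and Chmp1b had log2 fold changes of -0.10 ± 0.12 and -0.12 ± 0.12, and Chmp3 had 0.02 ± 0.13. For the ATPases that disassemble ESCRT-III, Vps4b averaged 202 ± 11.3 CPM in EV-treated and 124 ± 2.08 CPM in control libraries and rose by 0.71 ± 0.10, while Vps4a averaged 47.6 ± 6.16 CPM in EV-treated and 40.4 ± 2.97 CPM in control libraries, with overlapping groups and an edgeR adjusted p of 0.109. Without EV-treated C, Vps4a was called as a rise (log2 fold change of 0.33).

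Syntenin and ALIX form a route from cell-surface syndecans to ESCRT-III. Sdcbp, which encodes syntenin, had 1188, 1243 and 939.7 CPM in EV-treated A, B and C, against 597, 638 and 573 CPM in control A, B and C. The lowest EV-treated library was far above the highest control library, and Sdcbp, the fifth member by level per length, rose by 0.90 ± 0.14 on the log2 scale (edgeR adjusted p = 0.000259). Pdcd6ip, which encodes ALIX, averaged 392 ± 37.3 CPM in EV-treated and 315 ± 20.8 CPM in control libraries and rose by 0.32 ± 0.12 (edgeR adjusted p = 0.0351). That call was lost without EV-treated A, EV-treated C, control A or control B, with edgeR adjusted p-values of 0.109 to 0.167. Upper-quartile scaling and no filter on low counts also lost it, and the sign turned with library totals as the scaling.

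The flotillins are lipid-raft scaffolds that normally work as a pair. Flot1 had 18.5, 18.9 and 16.8 CPM in EV-treated libraries, against 58.2, 59.6 and 47.5 CPM in control libraries. The groups were widely separated, and Flot1 fell by 1.61 ± 0.12 (edgeR adjusted p = 1.83e-06). Flot2 averaged 50.2 ± 3.34 CPM in EV-treated and 59.6 ± 6.82 CPM in control libraries, a log2 fold change of -0.25 ± 0.11 that was not called (edgeR adjusted p = 0.0792). Flot2 was called as a fall with upper-quartile scaling, with library totals and without control C (log2 fold change of -0.36). No filter on low counts and the single bin with the most counts also gave a called fall. Smpd3, the neutral sphingomyelinase that makes ceramide, was at most 0.716 CPM in any library; it fell by 1.17 ± 0.40, and the call was lost without EV-treated A (log2 fold change of -1.13, edgeR adjusted p = 0.0703), without control C (-0.74, edgeR adjusted p = 0.142) and with the 3'-most bin left out (-1.01, edgeR adjusted p = 0.0655).

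Counts were deposited per exon bin, which shows where along a gene the reads lay. The share of a gene's counts in each of its bins differed between the groups for 9 of the 44 members that could be tested (Pdcd6ip, Cd37, Vps4b, Vps37a, Vps36, Chmp4b, Sdcbp, Tspan4 and Tspan5; edgeR's diffSpliceDGE, Simes adjustment within genes and Benjamini-Hochberg adjustment over all entries). Over all entries this test called 21.6%, so the count of members is near the background. In the 3' untranslated region (UTR), 7 of the 51 bins of 27 members had lower use in EV-treated microglia and 0 had higher use, where 9.46% of all such bins had lower and 2.81% higher use. Among the members' 64 bins of the 5' UTR, 2 had lower and 1 had higher use, where 4.50% and 3.95% of all such bins did, and among their 417 coding bins 2 had lower and 2 higher use, where 0.841% and 0.746% did. Changes in use of a bin are given as natural logs, unlike the log2 fold changes of genes. The median natural-log change in use of 3' UTR bins was -0.02 for members and -0.03 for all entries.

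The change was deepest in Pdcd6ip. Its last 3' UTR bin, 2728 bases at chr9:113651744-113654471 on the minus strand, held 1.28%, 1.14% and 1.47% of the gene's counts in EV-treated A, B and C, against 6.29%, 6.29% and 6.80% in control A, B and C. Its use was thus lower in each EV-treated library than in any control library. The natural-log change in use was -1.60, with a diffSpliceDGE adjusted p of 3.85e-31 over all bins. Leaving out the 3'-most bin of each gene gave Pdcd6ip a log2 fold change of 0.37, beside 0.32 with it.

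Vps37a and Vps36 also carried long 3' UTR bins. The bin of Vps37a at chr8:40546276-40551134 held 19.9%, 19.6% and 23.4% of the gene's counts in EV-treated libraries, against 39.9%, 37.5% and 41.8% in control libraries. That of Vps36 at chr8:22218633-22220843 held 7.74%, 6.68% and 9.02% in EV-treated libraries and 19.6%, 17.7% and 16.1% in control libraries. In both genes the groups did not overlap, and the natural-log changes in use were -0.64 for Vps37a and -0.84 for Vps36. These bins weigh on the gene totals: the log2 fold change of Vps37a was 1.5 without its 3'-most bin and 0.30, not called, when the single bin with the most counts stood for the gene, and for Vps36 the single bin gave -1.39. A fold change of such a gene therefore depends on which of its exons are counted.

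Lower use was also called in 3' UTR bins of Chmp4b, Sdcbp, Vps4b and Tspan5. A 3' UTR bin of Chmp4b held 3.99% ± 0.178 of counts in EV-treated and 7.08% ± 0.5 in control libraries, and one of Sdcbp 0.744% ± 0.0414 in EV-treated and 1.24% ± 0.0740 in control libraries. For Vps4b the bin held 0.427% ± 0.113 in EV-treated and 1.23% ± 0.134 in control libraries, and for Tspan5 9.36% ± 1.18 in EV-treated and 13.9% ± 0.313 in control libraries (SD, n = 3 each). The bin usage of Pdcd6ip, Cd37, Vps4b, Vps37a, Vps36, Chmp4b and Sdcbp was called in all 11 alternatives, including without each single library, whereas Tspan5 was called in 6 of 11 and Tspan4 in 5 of 11.

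**Figure D5:**
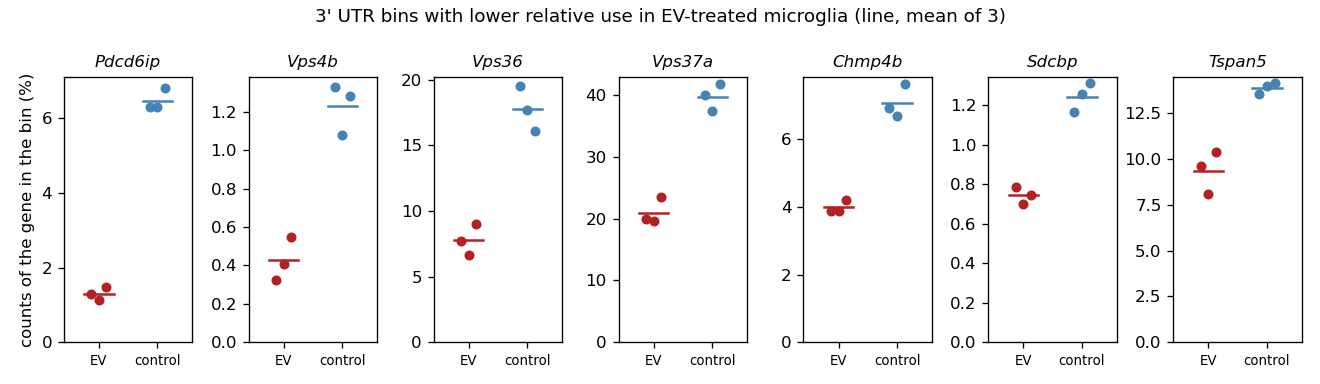
Percent of each gene's counts that fell in its 3' UTR bin with lower use (y axes start at 0 and differ between panels), for the 7 members with such a bin, with EV-treated at left and control at right; points are libraries and lines means. In every panel the 3 EV-treated points lie below the 3 control points, from 1.30% against 6.46% on average in Pdcd6ip to 9.36% against 13.9% in Tspan5.

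At the 5' end, bins of Cd37, Tspan4 and Pdcd6ip changed in use, and their promoter windows are printed here because those bins lie in or beside them. Each window runs from 250 bases before to 50 bases after a RefSeq gene start (GRCm38.p6), 5' to 3', and capitals mark matches to CACGTG, the E-box core of the CLEAR element of lysosomal genes, and to TGACTCA, the AP-1 motif, read on both strands.
Cd37, chr7:45238790-45239089, minus strand: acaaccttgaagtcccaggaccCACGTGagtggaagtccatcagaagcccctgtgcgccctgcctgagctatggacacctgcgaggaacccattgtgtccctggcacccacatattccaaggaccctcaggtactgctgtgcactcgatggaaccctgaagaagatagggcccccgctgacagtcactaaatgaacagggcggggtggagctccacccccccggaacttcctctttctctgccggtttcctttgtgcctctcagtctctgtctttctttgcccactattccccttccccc
Tspan4, upstream start, chr7:141474986-141475285, plus strand: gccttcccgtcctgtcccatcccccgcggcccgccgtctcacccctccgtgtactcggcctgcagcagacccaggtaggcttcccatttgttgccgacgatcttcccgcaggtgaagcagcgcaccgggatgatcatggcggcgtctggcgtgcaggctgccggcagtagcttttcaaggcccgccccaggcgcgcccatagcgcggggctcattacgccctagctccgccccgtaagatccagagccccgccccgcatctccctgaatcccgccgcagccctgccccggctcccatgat
Tspan4, downstream start, chr7:141476130-141476429, plus strand: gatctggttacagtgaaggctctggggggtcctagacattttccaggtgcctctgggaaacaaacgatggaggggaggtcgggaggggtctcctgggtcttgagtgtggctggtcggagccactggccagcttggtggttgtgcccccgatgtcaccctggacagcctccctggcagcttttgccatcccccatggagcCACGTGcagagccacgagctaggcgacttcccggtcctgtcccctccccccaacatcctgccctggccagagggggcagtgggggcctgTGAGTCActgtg
Pdcd6ip, chr9:113708210-113708509, minus strand: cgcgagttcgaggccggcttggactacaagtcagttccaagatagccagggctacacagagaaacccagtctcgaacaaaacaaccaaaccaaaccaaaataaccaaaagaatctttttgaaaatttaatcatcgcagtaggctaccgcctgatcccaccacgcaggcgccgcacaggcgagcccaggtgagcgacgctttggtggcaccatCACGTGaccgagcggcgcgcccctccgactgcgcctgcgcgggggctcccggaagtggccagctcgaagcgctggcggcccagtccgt

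The bins of Cd37 with lower use, at chr7:45238960-45239057 and chr7:45239058-45239115, lie upstream of the RefSeq start, so the first part of the Cd37 window, E-box included, falls within them. The nearer bin held 0.232%, 0.315% and 0.240% of counts in EV-treated A, B and C, against 1.15%, 0.930% and 0.690% in control A, B and C, and the farther bin 0.107% ± 0.0345 in EV-treated and 0.373% ± 0.12 in control libraries. Both carry a small share of Cd37 counts, and in both the groups did not overlap, with natural-log changes in use of -1.28 and -1.27. Another Cd37 bin at chr7:45237750-45238499 had lower use as well, with a natural-log change of -0.999. That bin and the nearer bin are classed as coding, and the farther bin as 5' UTR. In Tspan4, the first bin at chr7:141475240-141475497, which begins within the upstream window, held 0.377% ± 0.182 in EV-treated and 1.09% ± 0.135 in control libraries, a natural-log change in use of -1.13. The first 15 bases of Pdcd6ip, at chr9:113708245-113708259 in the printed window, rose in use by 1.29 on the natural-log scale, with 48, 76 and 123 counts in EV-treated libraries, against 32, 13 and 20 counts in control libraries.

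Motif matches were few among the members. Of 44 members with a promoter in the RefSeq table, CACGTG was found in Cd37, Pdcd6ip and Tspan4, TGACTCA in Tspan4 and Tspan15, and the kappa-B motif in Tspan9, Tspan11 and Tspan2os. Over all 32851 promoters of the same length, 7.15% held CACGTG, 5.20% TGACTCA and 4.51% the kappa-B motif. These shares are per promoter, whereas a member was counted if any of its windows matched, and some members have several windows. In the windows shown, the E-box starts 228 bases before the Cd37 start, 38 bases before the Pdcd6ip start and 51 bases before the downstream Tspan4 start, and the AP-1 match of Tspan4 starts at base 39 after that start. A match describes letters in a window and not a bound site.

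Genes that work beside the members moved in both directions too. Of 52 genes tested on lists of ESCRT accessory proteins, vesicle release and tetraspanin partners, 21 rose and 14 fell, and the median log2 change was 0.06. Of all entries, 33.0% rose and 33.5% fell, and the share of listed genes called was near the 66.5% of all entries. The same background applies to the single lists below. With library totals as the scaling 15 listed genes rose and 24 fell, where 3910 and 7585 of the 16605 entries did. Among 17 ESCRT accessory genes 7 rose and 3 fell. The rises with the smallest p were Vta1, the VPS4 cofactor, at 0.98 ± 0.13, Ist1, an ESCRT-III relative, at 0.72 ± 0.09, and Ptpn23, an ALIX-related adaptor, at 0.88 ± 0.14. The falls were Mvb12b, an ESCRT-I subunit, at -1.32 ± 0.11, the ubiquitin ligase Lrsam1 at -0.96 ± 0.11, and Cep55, which recruits ALIX and Tsg101 to the midbody, at -1.65 ± 0.28.

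On the vesicle release list, 10 of 22 genes tested rose and 7 fell. Sdc4, a syndecan that binds syntenin, had 242, 227 and 232 CPM in EV-treated libraries, against 16.7, 23.2 and 16.1 CPM in control libraries, the highest rise on the lists at 3.65 ± 0.16 (edgeR adjusted p = 6.64e-08). Pld2, a phospholipase D that acts with syntenin in exosome budding, rose by 1.78 ± 0.11 and Sdc1 by 1.89 ± 0.19. Steap3, a metalloreductase linked to exosome secretion, fell by 2.30 ± 0.14, Smpd2, another neutral sphingomyelinase, by 1.89 ± 0.14, and the small GTPase Arf6 by 0.91 ± 0.10. Of the 13 tetraspanin family members and partners tested, 4 rose and 4 fell. Hbegf, a growth factor that binds Cd9, rose by 2.90 ± 0.20, Igsf8, an immunoglobulin-family partner of Cd9 and Cd81, by 1.03 ± 0.11 and the integrin Itgb1 by 0.79 ± 0.12. Ptgfrn, the relative of Igsf8 that also binds both, fell by 2.47 ± 0.19, the laminin receptor subunit Itga6 by 2.42 ± 0.18 and the scavenger receptor Cd36 by 2.35 ± 0.28.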

How the data were processed

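The authors deposited raw counts, whole numbers per exon bin of a gene, per the file headers; Trimmomatic 0.36, STAR, Subread and DESeq2 on GRCm38 are listed in the submitters' processing notes, while parameters, annotation version and strandedness of counting were not found in the sources used here, so overlapping and antisense genes cannot be told apart. For each gene entry the bins were added up; joined entries were kept. After filterByExpr, 16605 entries were scaled by TMM (factors 0.855 to 0.921 in EV-treated and 1.09 to 1.16 in control libraries) and the groups compared by the quasi-likelihood F test of edgeR 4.0.16 under R 4.3.3, 2-sided and with no covariate. An SE is the log2 fold change over the root of its F. A read over several bins may be counted in each, so intervals of counting error are not given. Bin usage was tested with diffSpliceDGE, and bins were classed with GENCODE on GRCm38. Both tests were also run on simulated counts, whose outcome is not given here. Members and lists were chosen with earlier results of these data known. Called members whose absolute log2 change and mean log2 CPM both reach 1, without overlap between groups, and the 5 highest per length, are given in full; of each list, up to 3 rises and 3 falls with the smallest p. One cell type marker is not reported here. Replicates of a group differed by more than counting noise. Alternatives were other scalings, filters, DESeq2 1.42.0, limma-voom (limma 3.58.1), the replicate block, each library left out, single bins, joined entries left out and, chosen after seeing the data, the 3'-most bin left out. Python 3.11.15 with pandas 2.3.3 and matplotlib 3.10.9 was used.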

Additional observations from a re-analysis of the deposited data

How the results depend on the processing

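Of the 35 members called, 25 kept their direction and call in all alternatives run for them. Across scalings, filters, tools and bin choices, 16 to 24 members rose and 11 to 18 fell; leaving out each library gave 20 to 25 rises, 11 to 14 falls and 7 to 9 members with changed bin usage. With library totals alone, 24 genes of the pathway lists fell, against 14 with TMM scaling, the members' median was -0.081, and the sign turned for Pdcd6ip (-0.045), Vps4a (-0.14), Tsg101 (-0.20), Chmp3 (-0.35), Chmp4c (-0.083), Chmp7 (-0.079), Cd63 (-0.27) and Tspan15 (-0.14). Upper-quartile scaling turned Chmp3 (-0.10) and Cd63 (-0.024), no filter turned Chmp3 (-0.057), the single bin with the most counts turned Chmp3 (-0.38) and Chmp1b (0.083), leaving out the 3'-most bin turned Chmp3 (-0.0078), and limma-voom turned Tspan15 (-0.56). With single libraries left out, the log2 fold change ran from -0.080 to 0.12 for Chmp3, from -0.046 to 0.18 for Cd63, from -0.25 to 0.79 for Tspan15 and from -1.56 to 0.13 for Tspan2. The cause of these turns was not tested. Same-lettered libraries deviated together with correlations of 0.035, 0.167 and 0.210 for A, B and C, so the letters were not taken as pairs, although every library correlated best with its own letter; with the replicate letter as a block, 25 members rose, 13 fell, 11 had changed bin usage and Tspan15 was at -0.022; the block added calls for Chmp2a (0.37, edgeR adjusted p = 0.00491), Vps4a (0.23, edgeR adjusted p = 0.0494) and Flot2 (-0.24, edgeR adjusted p = 0.0261). In the deposited column names, libraries of the same letter carry different numbers, and a block by those numbers was not run. Genes near 0.1 CPM, such as Tspan2 and Tspan15, are limited by their counts.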
